A study of Homo sapiens with 6 samples.

Results

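The genes described here encode the machinery of mitochondrial and peroxisomal fatty acid oxidation. The list held 32 genes, taken by symbol from a table of 25336 genes, and each symbol matched a single row. The RNA came from THP-1, a human cell line grown from a monocytic leukaemia, in 3 libraries labelled control and 3 labelled pristimerin. Pristimerin is a plant triterpenoid with a reactive quinone methide group. The labels gave neither a dose nor an exposure time for pristimerin, no vehicle for the control cells, and no further agent for either group, although the series title also concerns erastin, an inhibitor of cystine uptake that triggers ferroptosis. Whether any of the cells received erastin is not stated in the labels.

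In fatty acid oxidation, a long-chain fatty acid is first coupled to coenzyme A. CPT1A exchanges the coenzyme for carnitine at the outer mitochondrial membrane, a carrier brings the acylcarnitine inside, and CPT2 restores the acyl-CoA. Each turn of the cycle then comprises a dehydrogenation, a hydration, a second dehydrogenation and a thiolytic cleavage that releases acetyl-CoA. Peroxisomes run a parallel chain on very long and branched fatty acids, and pass shortened products to mitochondria. Several of the short-chain enzymes also act in the breakdown of branched-chain amino acids.

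Each library held between 19057219 and 30568593 counts, and the lowest count of any of the 32 genes in any library was 122. Markers of the monocytic and myeloid lineage were present, with LYZ at 1431 CPM in control and 1589 CPM in pristimerin libraries and SPI1 at 279 and 290 CPM. CPM is the usual depth-scaled unit, here with library sizes corrected by TMM. Of 8 such markers 7 were at 1 CPM or more in every library, the exception being CD68 at 0.495 CPM in control, and their summed level was 1990 to 2125 CPM in control and 2230 to 2251 CPM in pristimerin libraries. T cell and epithelial markers found in the table summed to at most 0.0517 CPM in a library, erythroid markers were not analysed here, and fibroblast markers summed to 0.541 to 1.81 CPM. ITGAM, an adhesion receptor subunit of mature myeloid cells, was lower at 5.49 against 9.03 CPM (log2 fold change -0.71). The part of these markers in the results was not tested. In cultured cells sequenced in bulk, fewer cells of a type and less RNA per cell cannot be told apart.

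The libraries labelled pristimerin held less RNA of the carnitine palmitoyltransferase CPT1A, the very-long-chain dehydrogenase ACADVL, the flavoprotein subunit ETFB and the peroxisomal HSD17B4. They held more RNA of the medium-chain dehydrogenase ACADM, the hydratase ECHS1, the hydroxyacyl-CoA dehydrogenase HADH and the thiolase ACAT1. CPT2, which acts after CPT1A, and the short-chain dehydrogenase ACADS were not called. The called differences were under 2-fold, between 0.617 and 1.35 times the control level. In total, 6 of the 32 genes were higher (ACADM, ECHS1, HADH, ACAT1, SCP2 and PECR), 6 were lower (CPT1A, ACADVL, ETFB, DECR1, HSD17B4 and ACOT13) and 20 were not called. A call meant that the Benjamini-Hochberg value of the edgeR quasi-likelihood fit lay below 0.05. All 32 passed the low-count filter. Over the 15305 genes tested, 14.5% were higher and 15.1% lower, or 29.6% in either direction, against 18.8%, 18.8% and 37.5% of the 32 genes, so the number of calls was near the background. The median log2 fold change was -0.02 for the 32 genes and -0.01 for all genes tested. The split over all genes was 48.9% higher among those called, and 33.3% with upper-quartile scaling or 30.1% with library totals, with which 4 of the 32 genes were higher and 10 lower. Without control replicate 3, the number of lower genes in all was 1534, against 2313.

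**Figure D1:**
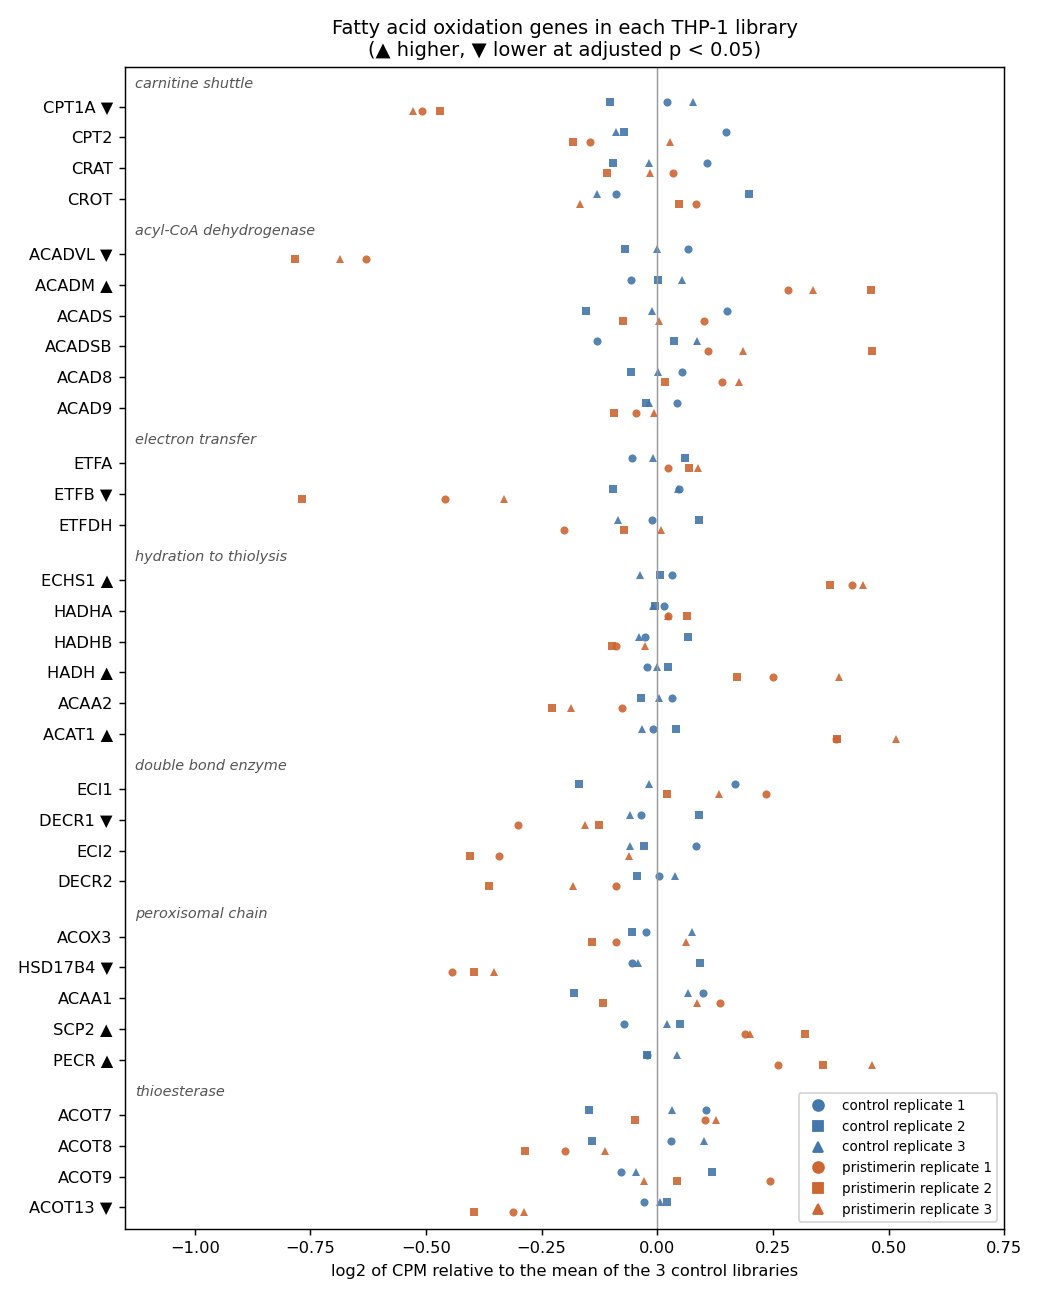
Level of each of the 32 genes in each library, as log2 of its CPM relative to the mean of the 3 control libraries, grouped by role; colours give the group, symbols the replicate, and triangles beside names the calls at an adjusted p under 0.05. The pristimerin libraries of CPT1A, ACADVL, ETFB and HSD17B4 lie left of every control library, and those of ACADM, ECHS1, HADH and ACAT1 lie right of every one.

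Promoter windows, reaching from 250 bases before to 50 bases after a RefSeq transcription start (GRCh38.p14), were matched for 27 of the 32 genes. 5 are shown: CPT1A, ACADVL and ETFB, which had the largest decreases, ACADM, which rose, and HADHB, whose window is shared with a divergent neighbour. Capitals mark GC boxes (GGGCGG) and the core of the antioxidant response element (TGACNNNGC), each searched on both strands, with the sequence written 5′ to 3′ along the gene.
CPT1A, chr11:68844228-68844527, minus strand: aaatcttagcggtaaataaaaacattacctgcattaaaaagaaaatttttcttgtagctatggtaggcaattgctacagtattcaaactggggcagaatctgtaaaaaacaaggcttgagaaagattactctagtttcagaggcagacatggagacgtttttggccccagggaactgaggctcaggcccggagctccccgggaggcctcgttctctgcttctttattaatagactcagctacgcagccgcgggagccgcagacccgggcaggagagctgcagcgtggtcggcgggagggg
ACADVL, chr17:7216875-7217174, plus strand: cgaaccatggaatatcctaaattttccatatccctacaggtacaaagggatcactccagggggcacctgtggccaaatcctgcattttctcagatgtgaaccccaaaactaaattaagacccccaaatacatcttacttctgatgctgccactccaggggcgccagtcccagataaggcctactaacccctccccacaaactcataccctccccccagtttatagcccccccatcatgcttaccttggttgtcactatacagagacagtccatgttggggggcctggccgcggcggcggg
ETFB, chr19:51366339-51366638, minus strand: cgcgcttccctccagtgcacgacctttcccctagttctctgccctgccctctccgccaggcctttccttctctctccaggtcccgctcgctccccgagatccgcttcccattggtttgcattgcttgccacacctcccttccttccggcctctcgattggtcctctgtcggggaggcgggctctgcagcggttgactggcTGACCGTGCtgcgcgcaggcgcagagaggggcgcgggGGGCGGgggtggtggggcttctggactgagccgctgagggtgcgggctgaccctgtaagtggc
ACADM, chr1:75724459-75724758, plus strand: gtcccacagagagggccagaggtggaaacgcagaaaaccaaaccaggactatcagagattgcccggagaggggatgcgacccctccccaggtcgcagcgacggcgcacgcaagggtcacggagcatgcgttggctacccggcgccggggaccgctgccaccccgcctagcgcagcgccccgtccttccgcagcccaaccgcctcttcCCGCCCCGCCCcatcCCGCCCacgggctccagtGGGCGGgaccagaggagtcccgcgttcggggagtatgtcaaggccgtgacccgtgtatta
HADHB, chr2:26244689-26244988, plus strand: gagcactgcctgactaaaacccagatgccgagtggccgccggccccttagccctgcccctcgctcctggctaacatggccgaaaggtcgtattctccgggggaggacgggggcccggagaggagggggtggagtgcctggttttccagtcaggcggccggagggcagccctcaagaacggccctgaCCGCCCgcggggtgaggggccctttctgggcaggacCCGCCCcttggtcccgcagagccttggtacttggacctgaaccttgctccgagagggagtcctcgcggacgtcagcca

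A single window was used per gene, at the RefSeq start nearest its annotated start, and other starts were not searched. The start used lay 133 bases from the annotated one for CPT1A, 278 for ACADM and 1769 for HADHB, and at it for ACADVL and ETFB. No match to either motif was found in the CPT1A and ACADVL windows shown. The ETFB window held the core sequence at 50 bases and a GC box at 13 bases before the start site. The ACADM window held 4 GC boxes between 43 and 10 bases before the start, the first 2 sharing a base, and the HADHB window held 2. GC boxes were found in 23 of the 27 windows and in 45.0% of all 35116 RefSeq windows of this length. The antioxidant core was in 4 of the 27 (ETFA, ETFB, ACOX3 and ACOT13), of which ETFB and ACOT13 fell and ETFA and ACOX3 were not called, and in 13.3% of all windows. The letters AGGTCA, a half-site of nuclear receptors, were in 1 of the 27 windows (ACOT7) and in 13.8% of all. A direct repeat of AGGTCA spaced by a single base, the form bound by PPAR and RXR, was in none of the 27 and in 0.0228% of all windows, the estrogen-related receptor element TCAAGGTCA in none and 0.353%, and the sterol regulatory element TCACCCCAC in none and 0.430%. HADHA and HADHB are transcribed in opposite directions from start sites 307 bases apart on chromosome 2, and 194 bases (26244689 to 26244882) belong to both windows.

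Of the 4 carnitine shuttle genes 1 fell and none rose (25.0% called, against 29.6% of all genes tested). CPT1A, the rate-controlling carnitine palmitoyltransferase of the outer membrane (ENSG00000110090, hg38 chromosome 11, 68754620 to 68844410, minus strand), measured 223, 205 and 232 CPM in control replicates 1, 2 and 3 and 155, 159 and 153 CPM in the pristimerin replicates. Every pristimerin library was below every control library. The means were 220 ± 14 and 155 ± 3 CPM (SD, n = 3 each), or 0.706 times the control level (log2 fold change -0.50, SE 0.06, adjusted p = 1.3e-05). CPT2, the inner-membrane partner (chromosome 1), measured 34.5, 29.6 and 29.2 CPM in control and 28.1, 27.4 and 31.7 CPM in pristimerin libraries. Here the groups overlapped and the change was not called (log2 fold change -0.10, SE 0.09, adjusted p = 0.44). CRAT, which handles short acyl groups, had a log2 fold change of -0.03 (SE 0.07), and CROT, the peroxisomal carnitine octanoyltransferase, -0.01 (SE 0.12). Neither was called, and both near-zero values changed sign under other settings.

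SLC25A20, the carrier that exchanges acylcarnitines for carnitine across the inner membrane and is not among the 32 genes, measured 33.6, 33.1 and 37.3 CPM in control and 21.3, 20.8 and 22.2 CPM in pristimerin libraries. The groups were far apart relative to their spread, and the log2 fold change was -0.69 (SE 0.08, adjusted p = 1.2e-05). Set within each library against CPT2, per kilobase of transcript, CPT1A stood at 3.83, 4.10 and 4.69 times CPT2 in control and at 3.25, 3.43 and 2.85 times in pristimerin libraries. The carrier went from 1.85 ± 0.25 to 1.22 ± 0.06 times CPT2 (SD, n = 3 each). These ratios do not depend on how libraries were scaled, and were chosen after the values of both genes were seen.

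Acyl-CoA dehydrogenases carry out the first step of each turn and differ in the chain length they accept. Of the 6 measured, 1 fell, 1 rose and 4 were not called (33.3% called, against 29.6% of all genes tested). ACADVL, the very-long-chain dehydrogenase (ENSG00000072778, chromosome 17, 7217125 to 7225266, plus strand), measured 266, 242 and 254 CPM in control and 164, 148 and 158 CPM in pristimerin libraries. This was the largest change among the 32 genes, to 0.617 times the control level, or -0.70 in log2 fold change (SE 0.06, adjusted p = 3.4e-07). ACADM, the medium-chain dehydrogenase (ENSG00000117054, chromosome 1, 75724431 to 75787575, plus strand), measured 72.1, 75.1 and 77.9 CPM in control and 91.2, 103.4 and 94.7 CPM in pristimerin libraries. All 3 pristimerin libraries exceeded all 3 control libraries (log2 fold change 0.36, SE 0.07, adjusted p = 0.0007). ACADM overlaps RABGGTB by 1379 bases on the same strand, and RABGGTB, at 72.8 CPM against 85.4 CPM, had a log2 fold change of 0.04.

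Within a library, ACADVL stood at 4.16, 3.64 and 3.68 times ACADM per kilobase in control replicates 1, 2 and 3, and at 2.03, 1.61 and 1.88 times in the pristimerin replicates. The mean went from 3.83 ± 0.29 to 1.84 ± 0.21 (SD, n = 3 each), 0.481 times the control value. The ratio in every pristimerin library was below that in every control library. This separation follows from the levels above, as ACADVL was lower and ACADM higher in every pristimerin library, and is no further result. The other dehydrogenases were not called. ACADS, for short chains, was at 29.7 ± 3.1 and 29.9 ± 1.8 CPM, a log2 fold change of 0.01 that became -0.05 with upper-quartile scaling and -0.06 with library totals. ACADSB and ACAD8, which act on intermediates of isoleucine and valine breakdown, had log2 fold changes of 0.26 (SE 0.10, adjusted p = 0.06) and 0.11 (SE 0.08). ACADSB was called higher with no low-count filter (0.28), DESeq2's test (0.27) and the replicate number as a block (0.26), and without pristimerin replicate 1 (0.34). ACAD9, which also assembles respiratory complex I, was at 89.4 ± 2.3 and 86.4 ± 2.6 CPM (SD, n = 3 each).

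**Figure D2:**
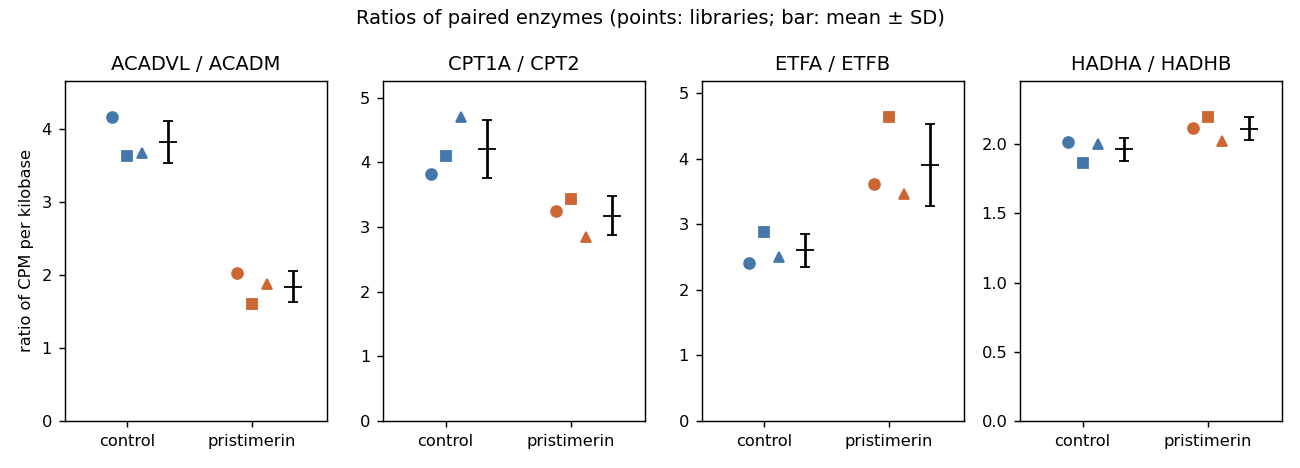
Ratio of the levels of paired enzymes within each library, from CPM per kilobase of the principal transcript; points are libraries, with symbols for replicates as elsewhere, and bars give mean ± SD of 3. The ACADVL to ACADM ratio went from 3.83 to 1.84, CPT1A to CPT2 from 4.21 to 3.18, ETFA to ETFB from 2.60 to 3.91, and HADHA to HADHB from 1.96 to 2.11.

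Electrons from the dehydrogenases pass to the electron transfer flavoprotein, a dimer of the ETFA and ETFB products, and from there through ETFDH to ubiquinone. ETFB (ENSG00000105379, chromosome 19, 51345169 to 51366388, minus strand) measured 25.7, 23.3 and 25.7 CPM in control and 18.1, 14.6 and 19.8 CPM in pristimerin libraries. The groups did not overlap, although pristimerin replicate 2 lay well below the other two. The log2 fold change was -0.51 (SE 0.11, adjusted p = 0.0018). Its partner ETFA was at 163.8 ± 6.6 and 170.9 ± 4.0 CPM and was not called, with a log2 fold change of 0.06 (SE 0.06) that became -0.01 with library totals. Per kilobase, ETFA stood at 2.42, 2.89 and 2.50 times ETFB in control and at 3.62, 4.63 and 3.47 times in pristimerin libraries. This ratio restates the fall of ETFB beside ETFA and is no separate result. ETFDH was at 27.7 ± 1.7 and 26.1 ± 1.9 CPM (SD, n = 3 each), not called, and overlaps PPID and C4orf46 on the opposite strand, both expressed above it.

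Of the 6 enzymes that complete the mitochondrial cycle, 3 rose and none fell. ECHS1, the short-chain enoyl-CoA hydratase (ENSG00000127884, chromosome 10, 133362485 to 133373354, minus strand), measured 106.7, 104.7 and 101.7 CPM in control and 139.7, 135.3 and 142.0 CPM in pristimerin libraries. The replicates of each group lay close together and the groups far apart (log2 fold change 0.41, SE 0.06, adjusted p = 6.5e-05). ACAT1, the mitochondrial acetoacetyl-CoA thiolase (ENSG00000075239, chromosome 11, 108116695 to 108147603, plus strand), measured 84.1, 87.1 and 82.7 CPM in control and 110.5, 110.8 and 121.1 CPM in pristimerin libraries. At 1.35 times the control level it had the largest increase of the 32 genes, a log2 fold change of 0.43 (SE 0.06, adjusted p = 8.6e-05). HADH, the short-chain 3-hydroxyacyl-CoA dehydrogenase (chromosome 4), measured 56.0, 57.8 and 56.9 CPM in control and 67.7, 64.1 and 74.7 CPM in pristimerin libraries. It rose by a log2 fold change of 0.27 (SE 0.07, adjusted p = 0.0077), a call that was lost without pristimerin replicate 3 (0.23, adjusted p = 0.052).

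HADHA and HADHB encode the subunits of the mitochondrial trifunctional protein, which performs the later steps on long chains. HADHA (chromosome 2, 26190635 to 26244672, minus strand) measured 604, 596 and 595 CPM in control and 608, 626 and 607 CPM in pristimerin libraries. The pristimerin libraries were above the control libraries by so little (log2 fold change 0.04, SE 0.05, adjusted p = 0.64) that upper-quartile scaling (-0.02) and library totals (-0.03) turned the sign. HADHB measured 201.7, 215.1 and 199.8 CPM in control and 193.2, 192.0 and 201.9 CPM in pristimerin libraries, with a log2 fold change of -0.07 (SE 0.06, adjusted p = 0.39). The genes overlap by 1503 bases on opposite strands, so that some of their reads could not be assigned if the counting ignored strand. ACAA2, the mitochondrial 3-ketoacyl-CoA thiolase, went from 36.1 ± 0.8 to 32.3 ± 1.8 CPM and was not called (log2 fold change -0.16, adjusted p = 0.13). Of the genes for the later long-chain steps, then, none passed the test in the main fit. ACAA2 was called lower with upper-quartile scaling (-0.22), library totals (-0.23) and the replicate number as a block (-0.16).

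Enzymes that rearrange or reduce double bonds allow unsaturated fatty acids to be degraded. DECR1, the mitochondrial dienoyl-CoA reductase, measured 87.9, 95.9 and 86.5 CPM in control and 73.1, 82.5 and 80.8 CPM in pristimerin libraries. The groups were separate but close, and the call of -0.19 on the log2 scale (SE 0.07, adjusted p = 0.043) was lost under 7 of 13 alternatives, among them DESeq2's test (-0.18) and leaving out control replicate 2 (-0.15), control replicate 3 (-0.20), pristimerin replicate 1 (-0.14) or pristimerin replicate 3 (-0.19). DECR1 overlaps NBN on the opposite strand. The isomerase ECI2, found in both organelles, had a log2 fold change of -0.27 (SE 0.11, adjusted p = 0.064), the peroxisomal reductase DECR2 -0.20 (SE 0.10) and the mitochondrial isomerase ECI1 0.13 (SE 0.09), and none was called. ECI2 passed the test with upper-quartile scaling and library totals, and without pristimerin replicate 3 (-0.36). DECR2 shares 8510 bases with NME4 on the same strand, a gene with 143 CPM against 15.6 CPM, so its value is uncertain.

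Within the peroxisomal chain, 2 of 5 genes rose and 1 fell (60.0% called, against 29.6% of all genes tested). HSD17B4, the bifunctional enzyme that hydrates and dehydrogenates (ENSG00000133835, chromosome 5, 119452465 to 119637199, plus strand), measured 153.7, 170.4 and 155.2 CPM in control and 117.5, 121.4 and 125.1 CPM in pristimerin libraries. Every pristimerin library was lower, with a log2 fold change of -0.40 (SE 0.06, adjusted p = 0.00016). SCP2, which encodes a peroxisomal thiolase and the sterol carrier protein made from the same gene (chromosome 1), measured 149.2, 162.2 and 158.9 CPM in control and 178.9, 195.6 and 180.1 CPM in pristimerin libraries. The increase of 0.24 on the log2 scale (SE 0.06, adjusted p = 0.0083) was not called with library totals (0.17). PECR, a peroxisomal enoyl-CoA reductase, was the weakest of these genes at 6.02, 6.02 and 6.30 CPM in control and 7.33, 7.84 and 8.44 CPM in pristimerin libraries. Its groups did not overlap (0.36, SE 0.11, adjusted p = 0.021), but the call was lost with library totals (0.29), without pristimerin replicate 3 (0.33) and without both libraries numbered 2 (0.36), and PECR overlaps the same-strand gene MREG. ACOX3, an oxidase for branched chains, was at 42.7 ± 2.0 and 41.1 ± 3.1 CPM, and the thiolase ACAA1 at 52.3 ± 5.3 and 53.8 ± 4.9 CPM (SD, n = 3 each). Neither was called.

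Acyl-CoA thioesterases release the fatty acid from its coenzyme. ACOT13, a mitochondrial member, measured 13.5, 13.9 and 13.8 CPM in control and 11.1, 10.4 and 11.2 CPM in pristimerin libraries. The control replicates were nearly equal and all above the pristimerin replicates (log2 fold change -0.33, SE 0.09, adjusted p = 0.013); the call was lost without control replicate 3 (-0.31, adjusted p = 0.057). ACOT13 overlaps the far more abundant C6orf62 by 205 bases on the opposite strand. The peroxisomal ACOT8 (-0.19, SE 0.09, adjusted p = 0.12), the mainly cytosolic ACOT7 (0.06, SE 0.08) and the mitochondrial ACOT9 (0.09, SE 0.09) were not called. ACOT8 was called lower with upper-quartile scaling (-0.25), library totals (-0.27) and the replicate number as a block (-0.20), and without control replicate 2 (-0.26).

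Levels of different genes were compared per kilobase of the principal transcript in GENCODE 29, because the gene length implied by the deposited FPKM was 0.79 to 9.26 times that length (24.9 against 2.69 kb for HSD17B4). On this scale the control means spanned 69.1-fold, from 2.85 ± 0.36 CPM per kilobase for CROT to 197.0 ± 1.7 for HADHA (SD, n = 3 each). ACADVL (109.4 ± 5.2) and HADHB (100.5 ± 4.1) came next in control, and their libraries overlapped, so their order was not distinguishable. In pristimerin libraries the order after HADHA began with HADHB (95.7 ± 2.6) and ECHS1 (86.0 ± 2.1, against 64.6 ± 1.6 in control), and ACADVL (67.5 ± 3.6) had gone from rank 2 to rank 5. CPT1A went from rank 10 (42.1 ± 2.6) to rank 15 (29.7 ± 0.6). Ranks and ratios between genes depend on the lengths used: by the deposited FPKM, CPT1A stood at rank 5, ECHS1 at rank 2, ACADVL at rank 3 and ACADM at rank 20 in control libraries. The fold of a ratio between the groups does not depend on them. The summed level of the 32 genes was 2801 to 2834 CPM in control and 2712 to 2765 CPM in pristimerin libraries. HADHA made up 16.4 to 16.5% of the summed level per kilobase in control and 16.7 to 17.8% in pristimerin libraries.

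**Figure D3:**
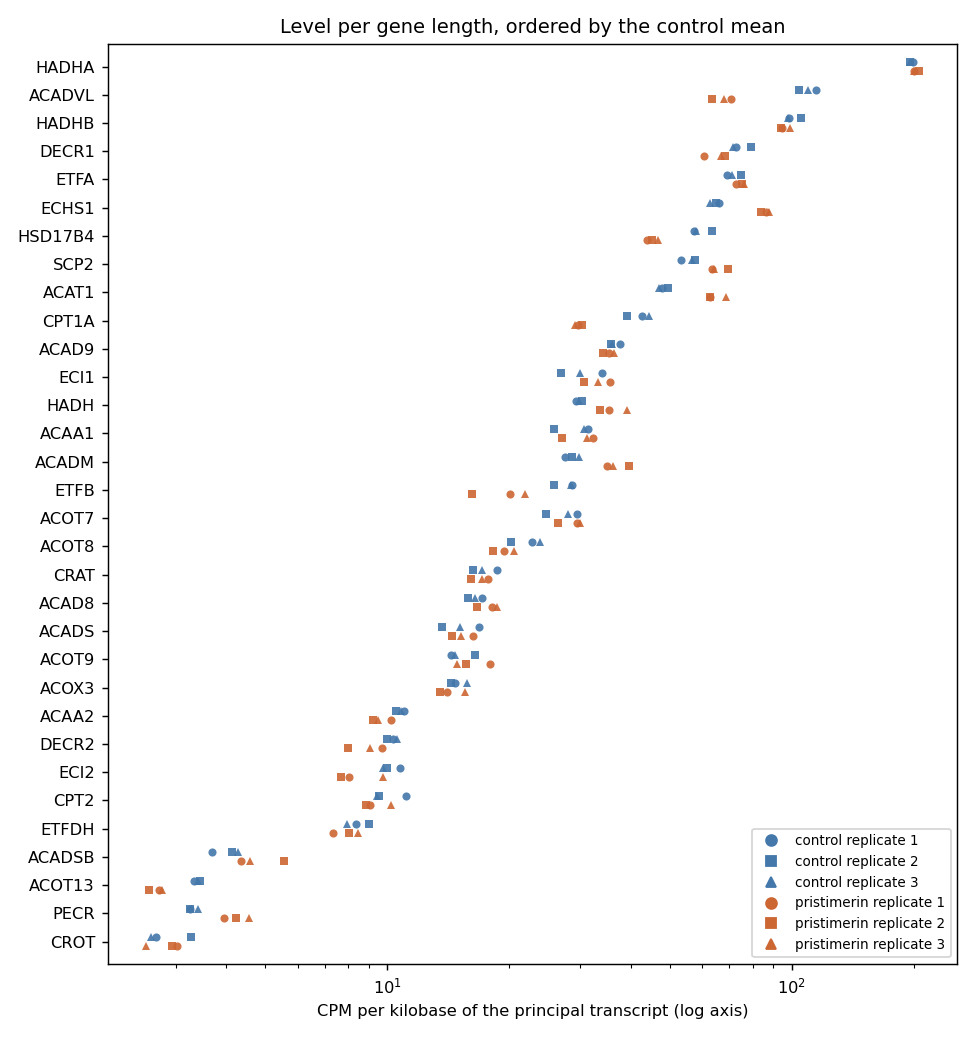
Level of each gene in each library as CPM per kilobase of its principal transcript, on a log axis, ordered by the control mean; colours give the group and symbols the replicate. HADHA is at the top near 200 in both groups, the pristimerin libraries lie left of the control libraries for ACADVL and CPT1A, and right of them for ECHS1, ACAT1 and ACADM.

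The annotation deposited with the table also assigned genes to pathways. KEGG's degradation of valine, leucine and isoleucine was assigned to 11 of the 32 genes, of which 4 were higher (ACADM, ECHS1, HADH and ACAT1) and none lower, with a median log2 fold change of 0.11. Among the 21 without it, 2 were higher and 6 lower, with a median of -0.09. The called shares were 36.4% with and 38.1% without the annotation, against 29.6% of all genes tested. The 32 tested genes of that pathway outside the list comprised 11 higher and 5 lower, with a median of 0.09. Fatty acid degradation was assigned to 16 of the 32 genes (4 higher, 2 lower), the peroxisome to 10 (2 higher, 1 lower) and PPAR signalling to 6 (2 higher, 1 lower), each with calls in both directions. By compartment, of 22 mitochondrial genes 4 were higher and 5 lower (40.9% called, against 29.6% of all genes tested). Of 8 peroxisomal genes 2 were higher and 1 lower (37.5% called). These groupings were not tested.

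A further 57 genes of the pathway and its control were listed, 56 of which were in the table and 49 tested, with 10 higher and 13 lower (46.9% called, against 29.6% of all genes tested). By set, 2 of 4 genes of entry and its control fell and none rose, 2 of 15 other mitochondrial genes rose and 3 fell, and 3 of 15 other peroxisomal genes rose and 3 fell. Beside SLC25A20, the gene of entry that fell was ACACB, named after its value was seen, the mitochondrial acetyl-CoA carboxylase whose product malonyl-CoA inhibits CPT1. It went from 32.9 ± 2.5 to 25.8 ± 0.9 CPM (log2 fold change -0.35, SE 0.08, adjusted p = 0.0052) and shares 10139 bases with the same-strand gene UNG. ABCD2, a peroxisomal transporter of very-long-chain acyl-CoA, named after its value was seen, rose from 9, 8 and 7 counts to 56, 33 and 45 counts, or 0.323 ± 0.042 to 1.68 ± 0.35 CPM (log2 fold change 2.38, SE 0.32), and stayed weakly expressed. The ketone-using enzymes BDH1 and OXCT1, named after their values were seen, were higher. The thioesterase ACOT11 fell from 6.20 ± 0.83 to 4.17 ± 0.27 CPM (SD, n = 3 each).

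The nuclear receptors that regulate these genes differed in direction. PPARA, the main activator of fatty acid oxidation in liver, measured 23.5, 27.1 and 29.4 CPM in control and 35.3, 36.8 and 34.6 CPM in pristimerin libraries (log2 fold change 0.42, SE 0.09, adjusted p = 0.0021). PPARD rose from 21.7 ± 1.9 to 32.8 ± 3.5 CPM (0.60, SE 0.10, adjusted p = 0.00022). PPARG, best known from fat cells and macrophages, fell from 7.04 ± 0.67 to 4.13 ± 0.47 CPM (-0.77, SE 0.13, adjusted p = 0.00036), and their shared partner RXRA from 260.5 ± 12.6 to 167.7 ± 3.4 CPM (-0.64, SE 0.06). Every pristimerin library lay above every control library for PPARA and PPARD, and below every one for PPARG and RXRA. Of the 9 regulators tested, 3 were higher and 2 lower (55.6% called, against 29.6% of all genes tested). The coactivator PPARGC1B, named after its value was seen, was among the higher. ESRRA, NRF1, LPIN1 and SIRT3 were not called, and PPARGC1A did not pass the low-count filter.

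Of 3 tested genes outside the oxidation pathway that PPARs are known to activate, 2 fell (66.7%, against 15.1% of all genes tested). This short list was chosen with earlier results of these data known. The annotation assigned PPAR signalling to a larger set, which held more higher than lower genes. Leaving out the genes of the main fatty acid oxidation list, 39 of that set were tested. Of these, 14 were higher (35.9%, against 14.5% of all genes tested) and 9 lower (23.1%, against 15.1%). Their median log2 fold change was 0.15, and this grouping was not tested. PLIN2, which coats lipid droplets, measured 63.1, 60.6 and 68.6 CPM in control and 36.4, 33.5 and 35.4 CPM in pristimerin libraries (log2 fold change -0.87, SE 0.07). PDK4, a kinase that restrains pyruvate oxidation when fat is burned, was named after its value was seen. It fell from 82, 84 and 73 counts to 14, 14 and 11 counts, or from 3.23 ± 0.47 to 0.491 ± 0.043 CPM (SD, n = 3 each), which is -2.70 on the log2 scale (SE 0.23). UCP2 was not called, and ANGPTL4 and FABP4 did not pass the low-count filter.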

How the data were processed

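The 6 RNA-seq libraries, all from THP-1 cells, fell by their labels into control and pristimerin (n = 3 each). Per the labels' protocols, RNA was poly(A)-selected and made into strand-specific libraries. The submitters' processing notes name the build hg38; aligner, counter and strand setting were not given in those sources. The authors deposited unnormalised counts and FPKM values; the FPKM values equal count over library total and a fixed gene length. If counting ignored the strand, reads of overlapping genes were mixed: 11 of the 32 genes overlap another gene with at least 20% of their level.

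After TMM scaling and the default low-count filter (at least 10 counts in enough libraries and 15 in all), the counts went into the quasi-likelihood test of edgeR 4.0.16 (R 4.3.3), modelled on group alone and adjusted by Benjamini-Hochberg over 15305 genes (threshold 0.05); 10031 genes were not tested. The procedure was tested on simulated data. An SE is the absolute log2 fold change over the square root of F. Levels per kilobase used the APPRIS principal transcript of GENCODE 29.

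Genes, lists and tests were chosen with earlier results of these data known. All 32 genes are named, and values per library are given for called genes and for CPT1A, CPT2, HADHA and HADHB. Of the other pathway genes, the rule named the 8 largest changes with a mean of at least 5 CPM, with PPARA, PPARD, PPARG, SLC25A20 and 1 more; some genes it named are not reported here. The labels do not say whether replicates were separate cultures, so p-values measure the spread between libraries, which may be technical. No batch or date is labelled. Chi-square values of 2.75 to 11.6 per degree of freedom between replicates showed no duplicate library. The libraries numbered 2 stood apart on the second principal component (13.1% of variance). As alternatives, scaling used upper quartiles, library totals or the size factors of DESeq2, and the fit was run with no low-count filter, DESeq2 1.42.0, the replicate number as a block, and leaving out each library, or both libraries numbered 2. The third deposited table repeats the same values and was not used.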

Additional observations from a re-analysis of the deposited data

How the results depend on the processing

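Of 572 values for 44 genes under 13 alternatives, 522 kept their direction and side of the threshold, 13 lost and 16 gained a call, and 21 changed sign, each of a gene that was not called. Of the 23 called among these 44 genes, 18 kept the call under every alternative run. The exceptions were DECR1, HADH, SCP2, PECR and ACOT13. ACACB, BDH1, OXCT1 and PPARGC1B were not among the 44, so their calls were not followed under the alternatives. The count of lower genes on the list was 10 with library totals, against 6. Over all genes, library totals gave 1389 higher and 3221 lower (30.1% of calls higher), upper-quartile scaling 1523 and 3052 (33.3%), against 2216 and 2313 (48.9%); without single libraries the count of lower genes ran from 1534 (without control replicate 3) to 2329. The cause of these shifts was not tested. Signs turned for CROT without a filter (0.00387), for ACADS (-0.0464), HADHA (-0.0230) and ACAA1 (-0.0182) under upper-quartile scaling, and for ACADS (-0.0575), ETFA (-0.0109), HADHA (-0.0339), ACAA1 (-0.0296) and ACOT7 (-0.0072) with library totals. Leaving out single libraries, or both numbered 2, gave -0.0754 to 0.0306 for CRAT, -0.0586 to 0.105 for CROT, -0.0603 to 0.0989 for ACADS, -0.0950 to 0.0014 for ACOX3, -0.0420 to 0.117 for ACAA1 and -0.0064 to 0.123 for ACOT7. Leaving out both numbered 2 was chosen after seeing the data, and there CROT was 0.08 and ACADS -0.02.

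With the replicate number as a block, 7 genes of the list were higher and 9 lower, against 6 and 6, while calls over all genes rose to 39.8% from 29.6%; ACADSB, ACAA2, ECI2 and ACOT8 gained a call. Deviations of same-numbered libraries correlated at 0.10, 0.14 and 0.04, so the numbers were not taken as pairing, although each library correlated best with its own number.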
